A study of Mus musculus with 44 samples.

Results

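The genes of 10 lipid droplet proteins were followed across 9 groups of mouse livers. They were chosen by name, whatever their level: the perilipins Plin2, Plin4 and Plin5, the CIDE genes Cidea, Cideb and Cidec, the lipolysis genes Pnpla2 and G0s2, the related lipase gene Pnpla3, and the enzyme gene Hsd17b13. All 10 were found among the 35249 genes of the count table, and 9 passed the filter on low counts. Cidea did not pass and has levels but no test. RNA was sequenced from livers of wild-type mice (WT) and of mice lacking Ripk3 (Ripk3-/-, Ripk3KO) or Mlkl (Mlkl-/-, MlklKO), 1 library per labelled sample and 44 libraries in all. RIPK3 is the kinase, and MLKL the membrane-breaking protein it activates, in necroptosis, a lytic form of programmed cell death. Mice aged 2 months entered the study and were then fed for 6 months on ordinary chow (control) or on food lacking choline, either low in fat (CD-LFD) or high in fat (CD-HFD). The WT groups held 6 libraries on each diet. The Ripk3KO groups held 6 libraries on control, 3 on CD-LFD and 4 on CD-HFD, and the MlklKO groups 6, 4 and 3. The labels state no cell-type restriction of either deletion and name no sex, litter or hour of collection. They also do not say whether each library came from a separate mouse, so p-values measure the spread between these samples.

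A lipid droplet is a core of neutral lipid under a single layer of phospholipid, and proteins on that layer govern how the lipid is stored and released. Perilipins coat the droplet and limit the access of lipases. CIDE proteins gather where droplets touch and move lipid from the smaller to the larger. ATGL, the product of Pnpla2, cuts the first fatty acid from triglyceride and is held back by the protein of G0s2. Choline is needed to make the phosphatidylcholine that coats both droplets and secreted lipoproteins, and a choline-deficient diet is a classical way to make a mouse liver store fat.

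Levels are given as CPM, counts scaled to a common library total, after scaling by TMM, a factor that aligns the bulk of genes between libraries. Differences are log2 values with their standard error (SE) from the edgeR quasi-likelihood fit over all 44 libraries, and a gene is named as called, risen or fallen where its p adjusted by Benjamini-Hochberg over the 14862 genes tested was under 0.05. Where all libraries of a group are said to lie above or not to overlap those of another, this describes small groups and is not a test. The share of all genes without overlap is not given. In bulk liver RNA, fewer cells of a type and less RNA per cell cannot be told apart.

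The libraries held 2476268 to 12471844 counts, apart from WT CD-LFD replicate 3 with 88204703. The targeted genes were looked at first. Ripk3 had a median of 1.08, 2.60 and 3.28 CPM in WT on control, CD-LFD and CD-HFD and of 0.126, 0 and 0.0504 CPM in Ripk3KO, but the library labelled Ripk3KO control replicate 5 held 9 counts (1.01 CPM). Mlkl had a median of 4.80, 11.6 and 20.4 CPM in WT and of 1.79, 3.13 and 6.02 CPM in MlklKO, and the library labelled MlklKO CD-HFD replicate 1 stood at 14.4 CPM. Without the first of these libraries, the CD-HFD changes in Ripk3KO described below were log2 0.76 for Plin4, 0.45 for Pnpla2 and 0.48 for Hsd17b13, no longer called (adjusted p = 0.0962, 0.0772 and 0.0668), and log2 -1.34 for G0s2, then called (adjusted p = 0.0334). Without the second, the Cidec interaction of MlklKO with CD-HFD was log2 -1.83 (adjusted p = 0.108), not called. The 8 hepatocyte markers summed to between 54030 and 155300 CPM in every library. The livers also differed in the ratio of the clock genes Arntl and Dbp, which swings over the day. A high ratio was found in 4 of 6 WT control, 6 of 6 WT CD-LFD and 1 of 6 WT CD-HFD libraries and in 0 of the knockout libraries. On CD-LFD, genotype and clock ratio therefore cannot be told apart, and calls of members, apart from Pnpla3, that were lost when the class of the ratio, high or low, entered the fit are given with that value. The ratio itself was not fitted, and every knockout library is in the low class. Within MlklKO the log2 ratio was -4.96 to -3.67 on control, above -7.05 to -5.85 on CD-LFD and -6.11 to -5.19 on CD-HFD, a difference that the classes do not adjust for and whose part in the MlklKO diet results was not tested. On control the WT log2 ratios were 0.104 to 2.695 in the high class and -5.79 and -7.88 in the low class. None lay within the MlklKO control range, so neither the classes nor the low class alone match these groups. The part of that mismatch in the control diet differences was not tested. WT control replicates 5 and 6 stood apart in earlier results of these data, and calls of members that were lost without them are likewise given.

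Per length of exon, the members covered a wide range of levels. In WT livers on the control diet the median was 207.6 CPM per kilobase for G0s2, 167.8 for Hsd17b13 and 97.2 for Plin2. Pnpla2 followed at 26.4, Plin5 at 22.7 and Cideb at 20.8 CPM per kilobase. Cidec stood at 4.18, Plin4 at 2.22 and Pnpla3 at 0.630 CPM per kilobase, and Cidea had a median of 0. The WT median of Cidec was higher on the deficient diets, at 15.98 CPM per kilobase on CD-LFD and 26.3 on CD-HFD. The 3 adjacent levels of Pnpla2, Plin5 and Cideb lay within each other's ranges over libraries.

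**Figure D1:**
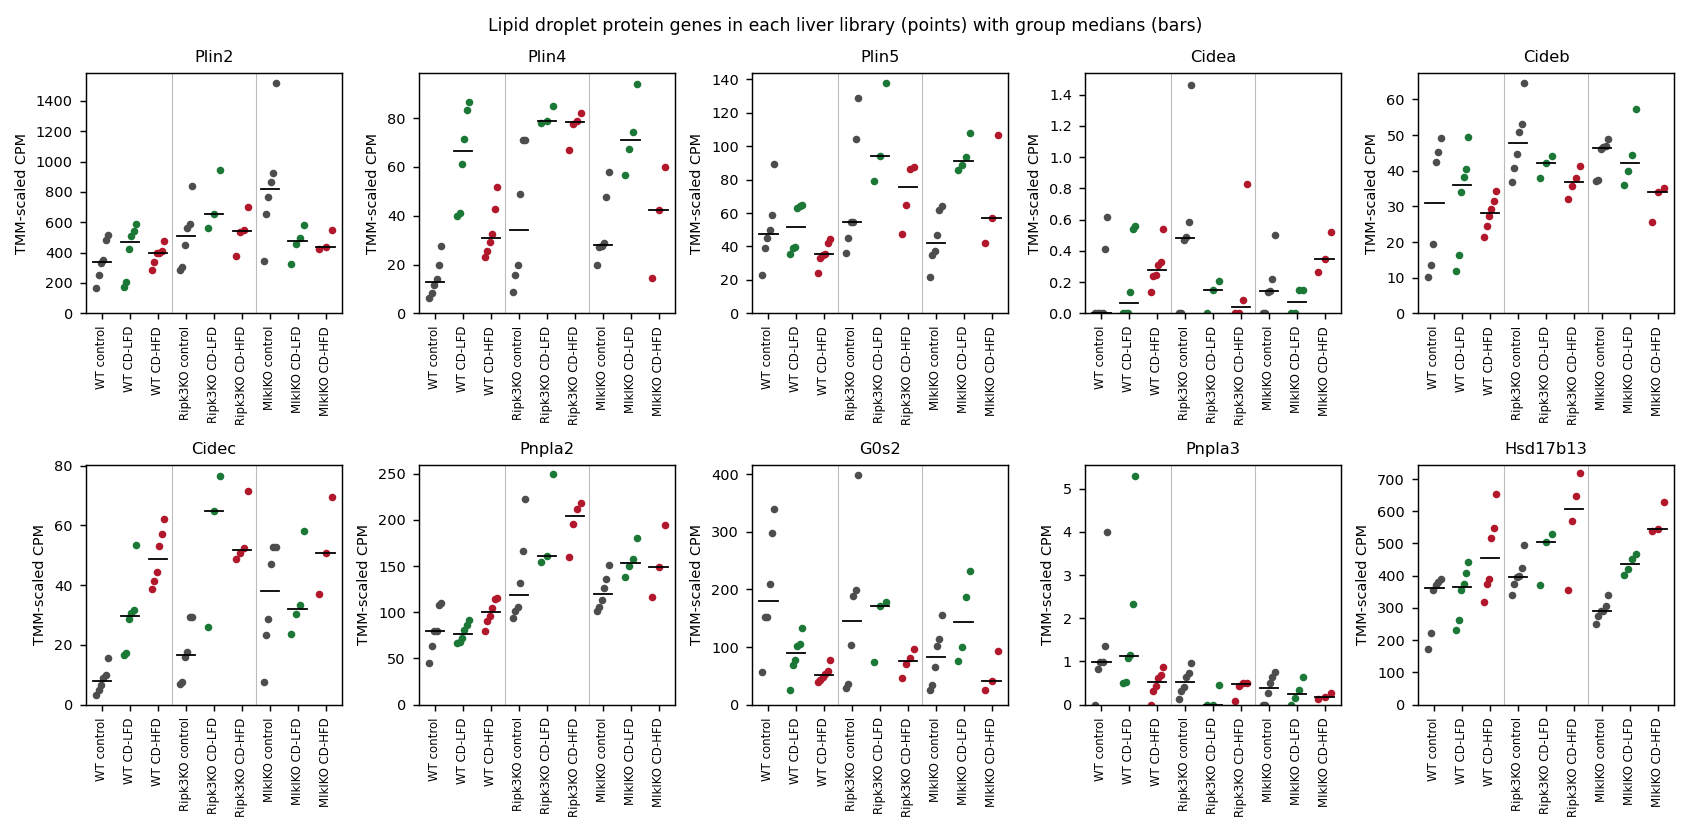
TMM-scaled CPM (linear axes from 0) of each member in every library, by group; each point is 1 library and each bar a group median. Cidec lay at 3.19 to 15.6 CPM in WT control and at 38.9 to 62.1 CPM in WT CD-HFD, while Cidea did not exceed 1.46 CPM.

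Plin2 encodes the perilipin that coats most droplets of hepatocytes, and it was the member with the highest summed counts. In WT it ran from 169 to 518 CPM on control (median 341), from 174 to 588 on CD-LFD (median 467) and from 283 to 477 on CD-HFD (median 399). The 3 WT diets overlapped, and neither diet change was called (log2 0.21, SE 0.29, on CD-LFD and log2 0.13, SE 0.29, on CD-HFD, adjusted p = 0.625 and 0.744). With library size alone the CD-HFD change was called (log2 0.63, adjusted p = 0.0464). MlklKO livers on control had the highest median of the 9 groups, from 342 to 1515 CPM with a median of 816. Against WT on the same diet Plin2 was higher there by log2 1.26 (SE 0.29, adjusted p = 0.0013), although the groups overlapped. On CD-LFD the MlklKO libraries held 456, 498, 584 and 325 CPM, a fall from the MlklKO control of log2 -0.86 (SE 0.33, adjusted p = 0.0367). On CD-HFD they held 424, 546 and 435 CPM, a difference of log2 -0.85 (SE 0.37, adjusted p = 0.0537) that was not called. It was called among low-ratio libraries (log2 -0.88, adjusted p = 0.02) and without WT control replicates 5 and 6 (log2 -0.85, adjusted p = 0.0388). The CD-LFD fall was lost without any 1 of 6 libraries, with the largest adjusted p of 0.14 without MlklKO control replicate 1, and with library size alone (log2 -0.71, adjusted p = 0.0644). In Ripk3KO the values were 284 to 839.9 CPM on control, 945, 656 and 565 on CD-LFD, and on CD-HFD 377, 536, 703 and 549.9, with no call by diet or against WT. With library size alone the CD-LFD difference in Ripk3KO was called (log2 0.825, adjusted p = 0.0467).

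Plin4 encodes a perilipin with a long repeat region that coats new droplets. Its 250 bases before the start of transcription are shown here, with those of Cidec and Pnpla2, because these 3 genes carried most of the calls below. The sequences are from RefSeq on build GRCm38.p6, on the minus strand for Plin4 (chr17:56109783-56110032) and for both starts of Cidec (chr6:113435761-113436010 and chr6:113434765-113435014) and on the plus strand for Pnpla2 (chr7:141454938-141455187). They are written 5′ to 3′ toward the gene, and capitals mark the GC box GGGCGG or its reverse.
Plin4: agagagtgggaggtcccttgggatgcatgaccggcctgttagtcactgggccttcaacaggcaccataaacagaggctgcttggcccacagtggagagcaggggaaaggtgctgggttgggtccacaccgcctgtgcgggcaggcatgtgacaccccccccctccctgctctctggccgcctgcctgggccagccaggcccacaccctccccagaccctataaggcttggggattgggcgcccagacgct
Cidec start 1: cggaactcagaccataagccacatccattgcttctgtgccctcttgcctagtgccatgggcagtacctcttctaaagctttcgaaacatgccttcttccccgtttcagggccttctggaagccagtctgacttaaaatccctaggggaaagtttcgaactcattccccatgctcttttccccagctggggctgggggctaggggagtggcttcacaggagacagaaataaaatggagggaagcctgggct
Cidec start 2: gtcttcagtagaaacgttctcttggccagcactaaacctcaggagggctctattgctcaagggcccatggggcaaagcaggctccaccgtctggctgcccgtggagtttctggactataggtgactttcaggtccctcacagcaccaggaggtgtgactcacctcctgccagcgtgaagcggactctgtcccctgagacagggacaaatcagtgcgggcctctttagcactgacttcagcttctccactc
Pnpla2: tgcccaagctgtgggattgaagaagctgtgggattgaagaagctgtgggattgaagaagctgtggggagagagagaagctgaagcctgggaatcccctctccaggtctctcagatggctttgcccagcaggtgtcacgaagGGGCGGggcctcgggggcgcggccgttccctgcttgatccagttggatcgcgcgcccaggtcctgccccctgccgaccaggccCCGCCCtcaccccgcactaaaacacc

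These windows were searched on both strands for 6 motifs, which do not overlap each other in letters. The GC box was found in 6 of the 11 windows of the 9 members searched, and in 32.7% of all 32851 windows of that length. Cidea, on chromosome 18, was left out of the search. The Pnpla2 window holds it in both directions, at 109 and 26 bases before the start. The E-box CACGTG, which clock factors bind, was in 0 of 11 windows (6.02% of all windows). The direct repeat 1, the element of PPAR factors, was in 0 of 11 (0.338%), and the sterol element TCACNCCAC in 0 of 11 (1.05%). The TATA box TATAAA was in 1 of 11 (Cideb, at 172 bases before the start, 12.4% of all windows). The cAMP response element TGACGTCA was in 1 of 11 (Pnpla3, at 46 bases before the start, 1.55%). A match is a description of letters and not a bound site, and the lack of one concerns these windows only.

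In WT livers Plin4 lay at 6.12 to 27.6 CPM on control (median 12.8), 40.0 to 86.8 on CD-LFD (median 66.4) and 23.1 to 51.7 on CD-HFD (median 30.9). All 6 CD-LFD libraries were above all 6 control libraries, a rise of log2 2.16 (SE 0.39, adjusted p = 4.87e-05) that was called in every alternative run. The rise on CD-HFD was log2 1.25 (SE 0.38, adjusted p = 0.00609), with overlap between the groups. It was log2 1.05 (adjusted p = 0.0575) with the clock class in the fit and log2 1.28 (adjusted p = 0.071) among libraries of low ratio alone. Ripk3KO control livers were split, with 71.2, 70.9 and 48.8 CPM in replicates 1 to 3 and 19.8, 8.93 and 15.6 CPM in replicates 4 to 6. On CD-LFD the Ripk3KO libraries held 84.8, 77.9 and 79.0 CPM, all above control, and on CD-HFD 78.8, 67.1, 82.2 and 77.8 CPM. The CD-HFD rise in Ripk3KO was log2 0.97 (SE 0.39, adjusted p = 0.039) and was lost without any 1 of 6 libraries, and the CD-LFD difference was log2 1.04 (SE 0.42, adjusted p = 0.0643), not called. The latter was called without WT control replicates 5 and 6 (adjusted p = 0.0499), among low-ratio libraries (0.0477) and in other alternatives. MlklKO values were 19.95 to 57.9 CPM on control (median 28.2), 74.4, 94.0, 56.7 and 67.4 on CD-LFD, and on CD-HFD 14.4, 60.1 and 42.5. The MlklKO rise on CD-LFD was log2 1.07 (SE 0.39, adjusted p = 0.0281), lost without any 1 of 6 libraries, and that on CD-HFD, log2 0.17 (SE 0.43, adjusted p = 0.779), was not called.

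On the control diet Plin4 was higher than WT in both knockouts, by log2 1.45 (SE 0.38, adjusted p = 0.0204) in Ripk3KO and log2 1.29 (SE 0.38, adjusted p = 0.0109) in MlklKO. With the clock class in the fit these were log2 1.20 (adjusted p = 0.306) and log2 1.03 (adjusted p = 0.154), and among low-ratio libraries log2 1.34 (adjusted p = 0.267) and log2 1.20 (adjusted p = 0.166). The Ripk3KO call was also lost without any 1 of 4 libraries. On CD-HFD all 4 Ripk3KO libraries were above all 6 WT libraries, but the difference of log2 1.17 (SE 0.39, adjusted p = 0.232) was not called in this comparison, in which few genes were. With the compared groups only it was called (log2 1.13, adjusted p = 0.00877).

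Plin5 encodes the perilipin that ties droplets to mitochondria in tissues that burn fat. Its gene lies next to Plin4 with no gene between them in the GRCm38.p6 RefSeq order. In WT it was 22.9 to 89.6 CPM on control, 35.3 to 65.0 on CD-LFD and 24.4 to 44.3 on CD-HFD, and neither diet change was called. On CD-HFD it was called as a fall with the clock class in the fit (log2 -0.87, adjusted p = 0.0176), among low-ratio libraries (log2 -0.91, adjusted p = 0.0446) and without WT control replicates 5 and 6 (log2 -0.76, adjusted p = 0.0278). The 4 MlklKO CD-LFD libraries, at 86.0, 108, 88.5 and 93.8 CPM, all lay above the 6 MlklKO control libraries, at 21.7 to 64.1 CPM (median 41.9). That rise of log2 1.08 (SE 0.31, adjusted p = 0.00572) was called in every alternative run, none of which adjusts for the difference in clock ratio between these groups. MlklKO CD-HFD libraries held 41.9, 107 and 57.1 CPM, of which 2 lay within the control range and 1 above it (log2 0.63, SE 0.34, adjusted p = 0.125). With library size alone that difference was called (log2 1.16, adjusted p = 0.00258). Ripk3KO values were 36.3 to 129 CPM on control, 94.0, 138 and 79.2 on CD-LFD and, on CD-HFD, 47.2, 87.4, 86.2 and 64.7, with no call. With library size alone the CD-LFD difference was called (log2 0.84, adjusted p = 0.044). All Ripk3KO libraries lay above all WT libraries on both deficient diets (log2 1.02, adjusted p = 0.145, on CD-LFD and log2 1.0002, adjusted p = 0.172, on CD-HFD), as did all MlklKO libraries on CD-LFD (log2 0.88, adjusted p = 0.118), and none of these was called. With the compared groups only the 3 were called, at log2 0.97 (adjusted p = 0.0492), 0.97 (0.0169) and 0.88 (0.0176).

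Cidec encodes the CIDE protein that fuses droplets, and is low in lean liver. In WT it had the largest change on CD-HFD of the 9 tested members. It lay at 3.19 to 15.6 CPM on control (median 7.76), 16.5 to 53.5 on CD-LFD (median 29.7) and 38.9 to 62.1 on CD-HFD (median 48.8). Every WT library on either deficient diet was above every WT control library. The rise was 6.03-fold on CD-HFD (log2 2.59, SE 0.39, adjusted p = 6.02e-07) and 3.58-fold on CD-LFD (log2 1.84, SE 0.39, adjusted p = 0.000431), and both were called in every alternative run. CD-HFD and CD-LFD overlapped, and their difference of log2 0.75 (SE 0.35, adjusted p = 0.124) was not called. It was called with the compared groups only (log2 0.71, adjusted p = 0.0371) and without WT CD-LFD replicate 2 (log2 0.997, adjusted p = 0.043).

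In Ripk3KO, Cidec was 6.97 to 29.3 CPM on control (median 16.8), 76.7, 25.9 and 64.9 on CD-LFD, and on CD-HFD 50.9, 52.6, 71.6 and 48.7. Both rises were of log2 1.65 (SE 0.42 and 0.39, adjusted p = 0.00333 and 0.000534), and both were called in every alternative run. MlklKO control livers already held 52.9, 28.8, 47.0, 23.4, 52.6 and 7.59 CPM in replicates 1 to 6, so that 5 of 6 were above all WT controls and 1 was within their range. MlklKO libraries held 33.5, 30.4, 23.5 and 57.99 CPM on CD-LFD and, on CD-HFD, 37.0, 69.7 and 50.7 CPM, which overlap that control. Neither MlklKO diet difference was called (log2 0.04, SE 0.39, adjusted p = 0.948, and log2 0.57, SE 0.42, adjusted p = 0.269). With library size alone the CD-HFD difference was called (log2 1.11, adjusted p = 0.0246).

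On the control diet Cidec differed between MlklKO and WT by log2 2.11 (SE 0.39, adjusted p = 0.000104). Among the libraries of low clock ratio alone, with 2 WT control libraries, it was log2 1.53 (adjusted p = 0.0731). On CD-LFD and CD-HFD it was log2 0.30 (SE 0.39) and log2 0.09 (SE 0.42), neither called. The diet change itself was smaller in MlklKO than in WT, by log2 -2.02 on CD-HFD (SE 0.59, adjusted p = 0.0389) and by log2 -1.80 on CD-LFD (SE 0.55, adjusted p = 0.0348). These interactions lost their call in 11 of 21 and 9 of 22 fits without 1 library, with adjusted p up to 0.11 and 0.0774. The first was also lost with the clock class in the fit (log2 -1.72, adjusted p = 0.103), and the second without WT control replicates 5 and 6 (log2 -1.72, adjusted p = 0.0526). For Ripk3KO the same 2 interactions were log2 -0.94 (SE 0.55) and log2 -0.19 (SE 0.58), not called.

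**Figure D2:**
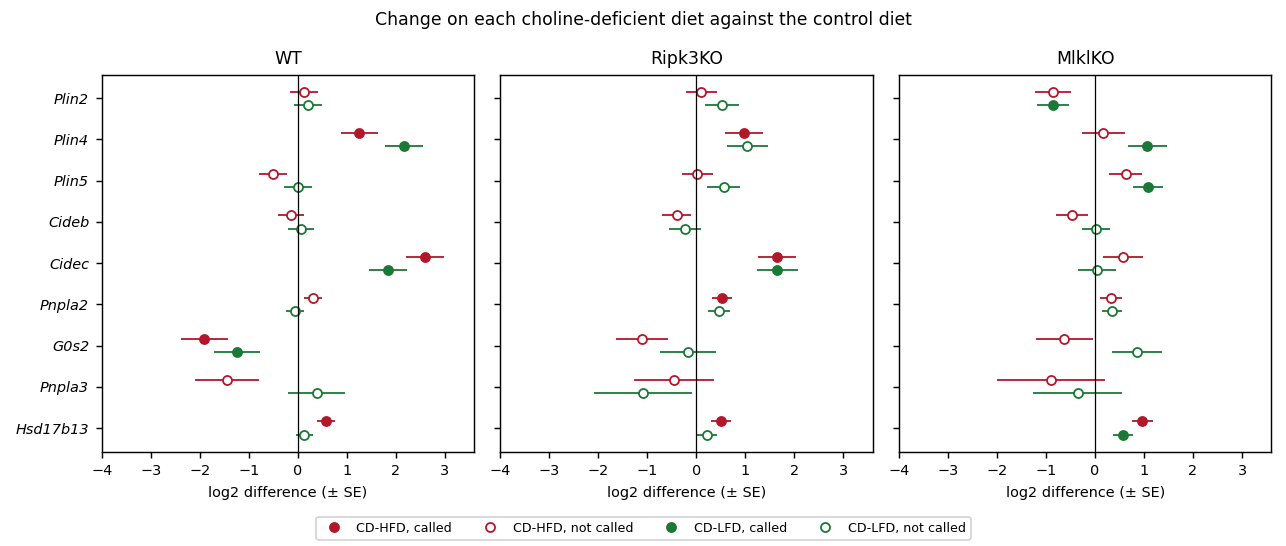
Log2 difference of each deficient diet from control (± SE) for the 9 tested members in each genotype; filled points are called. Cidec and Plin4 are filled to the right in WT on both diets and G0s2 to the left, whereas the Cidec points of MlklKO are open.

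Cidea, the CIDE gene best known from brown fat and from fatty liver, held 83 counts over the 44 libraries and 16 libraries had 0. In 37 libraries the count was 3 or fewer, the floor used here, so no fold is given. Markers that define fat cells were also at or near 0: Adipoq, Lep, Retn, Ucp1 and Plin1 had group medians of 0 to 0.0627 CPM, while Adrb3 and Cfd of the same list of 7 were detected. The list summed to group medians of 4.90 to 30.3 CPM, nearly all of it Adrb3.

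Cideb encodes the CIDE protein of hepatocytes, which loads lipid onto secreted lipoproteins. It was not called in any of the 19 comparisons, though among low-ratio libraries it was called lower on CD-HFD in MlklKO (log2 -0.50, adjusted p = 0.0291). In WT it was 10.2 to 49.2 CPM on control (median 30.9), 12.0 to 49.5 on CD-LFD (median 36.1) and 21.3 to 34.4 on CD-HFD (median 28.2). The wide WT control range came from 49.2, 42.4 and 45.4 CPM in replicates 1 to 3 against 19.3, 13.7 and 10.2 in replicates 4 to 6. Ripk3KO libraries held 36.8 to 64.6 CPM on control, 42.2, 44.2 and 38.0 on CD-LFD, and on CD-HFD 35.7, 38.0, 41.2 and 32.0. MlklKO libraries held 37.1 to 48.8, then 44.3, 40.0, 57.3 and 36.1, and then 35.3, 34.1 and 25.7 CPM on the same diets. Its gene lies near Ripk3 on chromosome 14, with 4 genes between them in the GRCm38.p6 RefSeq order (Ltb4r2, Ltb4r1, Adcy4 and Gm32092). In Ripk3KO it differed from WT by log2 0.66 (SE 0.27, adjusted p = 0.148) on control, 0.38 (SE 0.32) on CD-LFD and 0.39 (SE 0.29) on CD-HFD, none of them called. Cideb overlaps Nop9 and Ltb4r2 in that annotation, so the split of reads between them is uncertain. Plin4 likewise overlaps Hdgfl2, Cidec overlaps a long non-coding RNA and Plin2 a pseudogene.

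Pnpla2, the gene of ATGL, was the member that differed most often by genotype. It was higher than WT in 5 of the 6 knockout comparisons. On the control diet WT libraries held 45.1 to 109.9 CPM (median 79.6), Ripk3KO 93.9 to 223 (median 119) and MlklKO 101 to 151 (median 119.6). On CD-LFD the WT range was 67.0 to 91.1 CPM, below the Ripk3KO libraries at 160.3, 249.6 and 154 CPM and the MlklKO libraries at 150.2, 157, 179.8 and 139 CPM. On CD-HFD the WT range was 79.8 to 115 CPM, again below Ripk3KO at 159.9, 218, 212 and 196 CPM and MlklKO at 117, 195 and 149 CPM. On both deficient diets no knockout library overlapped WT, though on CD-HFD the lowest MlklKO library stood at 117 CPM against 115 CPM in WT.

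The Ripk3KO difference was log2 0.76 (SE 0.19, adjusted p = 0.0117) on control, log2 1.28 (SE 0.22, adjusted p = 0.000658) on CD-LFD and log2 0.97 (SE 0.20, adjusted p = 0.0144) on CD-HFD. For MlklKO it was log2 0.60 (SE 0.19, adjusted p = 0.0147), log2 1.01 (SE 0.20, adjusted p = 0.00216) and log2 0.62 (SE 0.22, adjusted p = 0.568, not called). With the clock class in the fit, the control differences were log2 0.41 (adjusted p = 0.44) and log2 0.25 (adjusted p = 0.454), and those on CD-LFD log2 0.71 (adjusted p = 0.715) and log2 0.44 (adjusted p = 0.917). Only the CD-HFD difference of Ripk3KO kept its call with that term (log2 0.88, adjusted p = 0.0218) and among low-ratio libraries alone (log2 0.89, adjusted p = 0.0267). It was lost in 4 fits without 1 library, with adjusted p up to 0.0787 without Ripk3KO CD-HFD replicate 2. Without WT control replicates 5 and 6 the control differences were log2 0.54 (adjusted p = 0.121) and log2 0.38 (adjusted p = 0.158). The CD-LFD difference of Ripk3KO was log2 1.02 (adjusted p = 0.0555) without Ripk3KO CD-LFD replicate 2. By diet, Pnpla2 rose in Ripk3KO on CD-HFD (log2 0.52, SE 0.20, adjusted p = 0.0332), a call lost without any 1 of 7 libraries, and was not called in WT or MlklKO. With library size alone it was also called on CD-HFD in WT (log2 0.81, adjusted p = 0.000198) and MlklKO (log2 0.87, adjusted p = 0.000635) and on CD-LFD in Ripk3KO (log2 0.74, adjusted p = 0.00661) and MlklKO (log2 0.50, adjusted p = 0.0399).

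**Figure D3:**
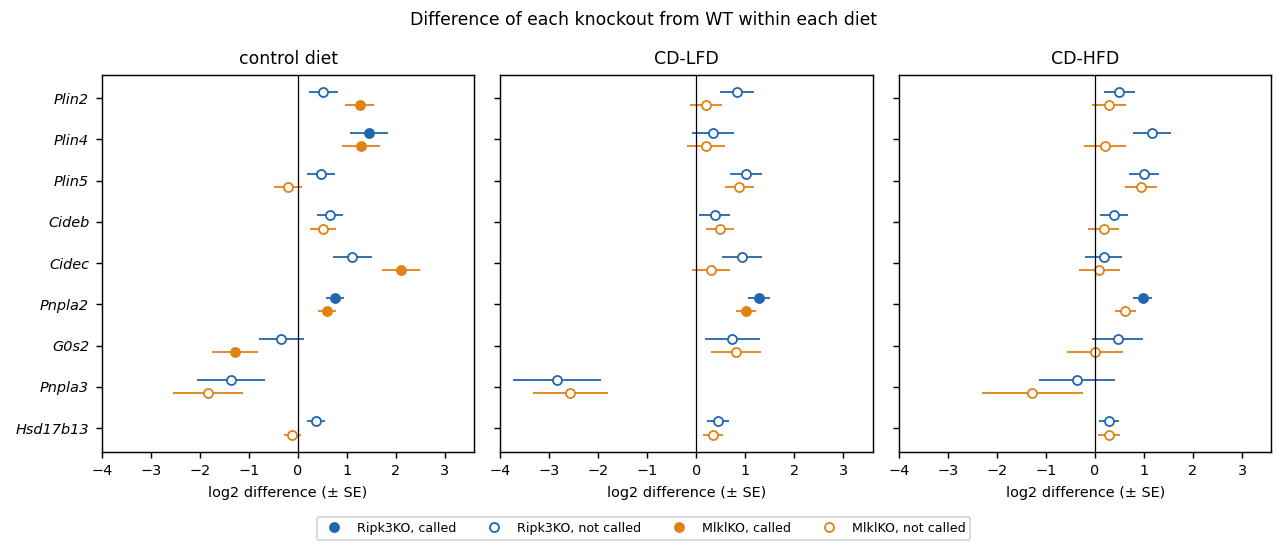
Log2 difference of Ripk3KO and of MlklKO from WT (± SE) within each diet for the 9 tested members; filled points are called. The Pnpla2 points lie right of 0 in all 3 panels, at 0.60 to 1.28, and all but the MlklKO point on CD-HFD are filled.

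G0s2 encodes the peptide that inhibits ATGL. In WT it lay at 55.9 to 339.5 CPM on control (median 181), 24.7 to 133 on CD-LFD (median 89.7) and 39.1 to 77.9 on CD-HFD (median 51.2). Of the 6 control libraries, 5 were above every CD-HFD library and replicate 3 was within their range. The fall on CD-HFD was log2 -1.91 (SE 0.48, adjusted p = 0.00103) and was called in every alternative run. The fall on CD-LFD was log2 -1.24 (SE 0.47, adjusted p = 0.0441) and lost its call without any 1 of 8 libraries. It was log2 -1.04 (adjusted p = 0.13) with the clock class in the fit and log2 -1.07 (adjusted p = 0.0869) without WT control replicates 5 and 6, and was also lost with RLE or library size scaling, the robust fit and the compared groups only. In Ripk3KO the control libraries ran from 28.3 to 398 CPM, the CD-LFD libraries held 171, 179 and 74.5, and the CD-HFD libraries 46.7, 95.8, 69.9 and 80.4, with no call. MlklKO control livers held 25.0 to 155 CPM (median 82.9), below WT by log2 -1.28 (SE 0.47, adjusted p = 0.0385), a call lost without any 1 of 5 libraries, without WT control replicates 5 and 6 (adjusted p = 0.127) and among low-ratio libraries (adjusted p = 0.0759). On CD-LFD the MlklKO libraries held 99.6, 187, 76.1 and 233 CPM and on CD-HFD 40.7, 93.9 and 25.4 CPM. The diet change on CD-LFD differed between MlklKO and WT by log2 2.09 (SE 0.69, adjusted p = 0.0503), which was not called. It was called without a count filter (adjusted p = 0.036), with DESeq2 (0.0425) and in 6 fits without 1 library (down to 0.0262).

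The ratio of Pnpla2 to G0s2 within a library combines the lipase and its inhibitor. Its median in WT was 0.464 on control, 0.942 on CD-LFD and 2.00 on CD-HFD. It was 1.23, 1.39 and 2.73 in Ripk3KO and 1.42, 1.17 and 2.87 in MlklKO. On CD-HFD the ratio ran from 1.16 to 2.75 in WT, from 2.27 to 3.42 in Ripk3KO and from 2.07 to 5.88 in MlklKO. The control ranges of 0.133 to 1.42 in WT, 0.418 to 3.72 in Ripk3KO and 0.976 to 5.05 in MlklKO overlapped. The ratio was made from 2 genes already described and was not tested.

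**Figure D4:**
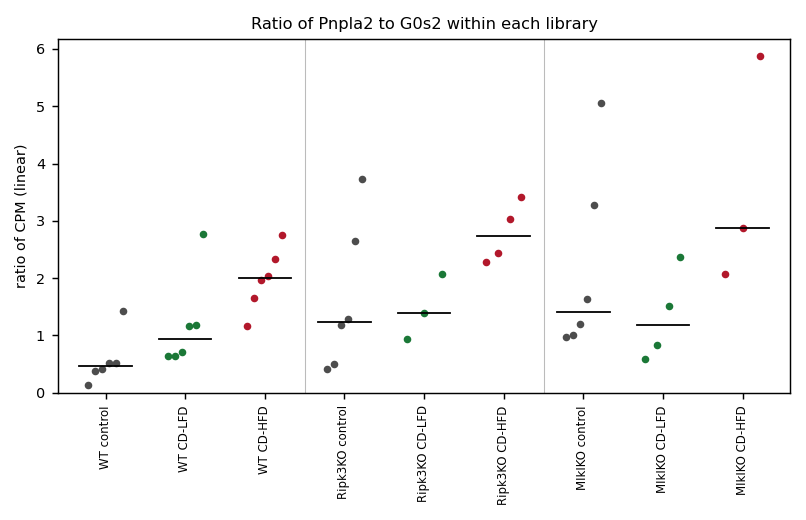
Ratio of Pnpla2 to G0s2 CPM (linear axis from 0) in each library, by group; points are libraries and bars group medians. In WT the median went from 0.464 on control to 2.00 on CD-HFD.

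Pnpla3 encodes a lipase-like droplet protein whose common human variant is linked to fatty liver. It was scarce here, with a median of 4 counts per library, 19 libraries at 3 counts or fewer and 7 at 0. WT control livers ran from 0 to 3.99 CPM and WT CD-LFD livers from 0.494 to 5.29 CPM, and the 2 highest libraries were WT CD-LFD replicate 1 and WT control replicate 4. WT CD-HFD livers ran from 0 to 0.871 CPM, within the WT control range. Every knockout library was under 1 CPM. The gene passed the count filter only through WT CD-LFD replicates 1 and 4 and WT control replicate 4, which are among the groups where it was high, so its tests are not used and its values are a description.

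Hsd17b13 encodes a liver enzyme of the droplet surface, and lies next to its relative Hsd17b11. In WT it was 171 to 391 CPM on control (median 362), 232 to 441 on CD-LFD (median 365) and 319 to 654 on CD-HFD (median 454). In MlklKO the control libraries held 249 to 339.8 CPM (median 291), the CD-LFD libraries 401, 467, 451 and 421 CPM, and the CD-HFD libraries 629.97, 537 and 546 CPM, and the 3 diets did not overlap. The difference between CD-HFD and CD-LFD in MlklKO was not called, but was with library size alone (log2 0.775, adjusted p = 0.00304). The MlklKO rise was log2 0.97 on CD-HFD (SE 0.22, adjusted p = 0.000336), called in every alternative run (none adjusting for clock ratio within MlklKO), and log2 0.58 on CD-LFD (SE 0.20, adjusted p = 0.0232), with adjusted p = 0.0579 without MlklKO CD-LFD replicate 2. The WT rise on CD-HFD was log2 0.57 (SE 0.18, adjusted p = 0.00947), but log2 0.31 (adjusted p = 0.228) with the clock class in the fit and log2 0.32 (adjusted p = 0.12) without WT control replicates 5 and 6. In Ripk3KO the libraries held 341 to 496 CPM on control, 504, 528 and 371 on CD-LFD. On CD-HFD they held 355, 648, 718 and 569 CPM, a rise of log2 0.50 (SE 0.20, adjusted p = 0.0404) that was lost without any 1 of 7 libraries. The neighbour Hsd17b11 was not called on CD-HFD in any of the 3 genotypes. No genotype comparison called Hsd17b13.

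These counts were read against the share of all tested genes called in the same comparison. For CD-HFD against control, 4 of 9 members were called in WT (47.7% of all genes), 4 in Ripk3KO (46.3%) and 1 in MlklKO (45.2%). For CD-LFD against control, 3 of 9 were called in WT (27.7% of all genes), 1 in Ripk3KO (24.1%) and 4 in MlklKO (37.9%). Between the deficient diets, 1 of 9 was called in WT (Pnpla3, whose test is not used; 21.1%), 0 in Ripk3KO (8.83%) and 0 in MlklKO (23.7%). At an unadjusted p under 0.05, the latter 2 counts were 0 and 1. The diet counts were close to these shares or below them in most comparisons, so they are no result about the members as a group.

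On the control diet 2 of 9 members were called between Ripk3KO and WT (4.47% of all genes) and 5 between MlklKO and WT (27.1%). On CD-LFD it was 1 for Ripk3KO (1.1%) and 1 for MlklKO (2.56%), and on CD-HFD 1 for Ripk3KO (0.377%) and 0 for MlklKO (0% of genes). DESeq2 called 2 genes of the whole table in the last comparison and no member, and 2 members had an unadjusted p under 0.05. In the interactions with CD-HFD, 0 of 9 members were called for Ripk3KO (0.478% of genes) and 1 for MlklKO (4.11%). In those with CD-LFD it was 0 (0.0269%) and 1 (8.45%). For the Ripk3KO interactions DESeq2 also called 0 members, and 0 had an unadjusted p under 0.05.

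The median difference over the 9 tested members, with Pnpla3 among them although its tests are not used, was log2 0.52 for Ripk3KO against WT on control, 0.73 on CD-LFD and 0.46 on CD-HFD, beside -0.03, 0.01 and 0.01 over all genes. For MlklKO it was log2 0.52, 0.33 and 0.20, beside -0.06, 0.00 and 0.03. These medians are given without a spread and were not tested. With the clock class in the fit, 0 members were called for Ripk3KO on control or for either knockout on CD-LFD. By diet the WT medians were log2 0.13 on CD-HFD and 0.14 on CD-LFD, beside -0.07 and -0.04 over all genes. The comparisons of the 2 knockouts with WT share the WT libraries, and the 2 diet comparisons of a genotype share its control libraries.

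A list of 24 other lipid droplet genes was counted beside the members, and 23 of them were tested. On CD-HFD most of the called genes fell. Of all genes, 47.7% were called in WT on CD-HFD, 3496 up and 3586 down. In the list 3 rose and 13 fell in WT, with a median of log2 -0.49 over the list and -0.07 over all genes. In Ripk3KO 2 rose and 11 fell (median log2 -0.47), and in MlklKO 2 rose and 8 fell (median log2 -0.37). Of all genes 46.3% were called in Ripk3KO, 3657 up and 3226 down (median log2 -0.05), and 45.2% in MlklKO, 3700 up and 3019 down (median log2 -0.04). The excess of falls depends on the scaling. With library size alone, which moved the median of all genes on CD-HFD to log2 0.43 in WT, 0.49 in Ripk3KO and 0.49 in MlklKO, the counts were 3 up and 1 down, 6 up and 4 down, and 8 up and 3 down.

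Hilpda, an inhibitor of ATGL, rose on CD-HFD by log2 1.42 in WT (SE 0.33, adjusted p = 0.000388) and log2 0.997 in Ripk3KO (SE 0.32, adjusted p = 0.0109). In MlklKO it was log2 0.12 (SE 0.35) and was not called. Plin3, the perilipin found in the cytosol as well as on droplets, rose by log2 0.33, 0.73 and 0.64 in WT, Ripk3KO and MlklKO. Tmem159, whose protein works with seipin where droplets form, rose by log2 1.03 in WT and 1.18 in MlklKO. Among the falls, Fitm1, a gene of droplet formation, changed by log2 -1.02, -1.43 and -1.67 in WT, Ripk3KO and MlklKO. Ldah, a droplet hydrolase, changed by log2 -0.97 in WT and -1.33 in Ripk3KO. Pcyt1a, the rate-limiting step of phosphatidylcholine synthesis, fell in WT by log2 1.19, with SE 0.38. Mgll, which cuts the last fatty acid, changed by log2 -1.20 in Ripk3KO. Abhd5, the coactivator of ATGL, changed by log2 -1.35, and Acsl4, an acyl-CoA synthetase, by log2 -1.19, both in MlklKO. With library size alone the WT falls of Fitm1 and Pcyt1a were not called, and that of Pcyt1a also not with the compared groups only. The Acsl4 fall in MlklKO was not called with library size alone either. The WT rise of Plin3 was not called in 3 of the 10 alternatives, among them the fit without WT control replicates 5 and 6, and that of Tmem159 not among low-ratio libraries.

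**Figure D5:**
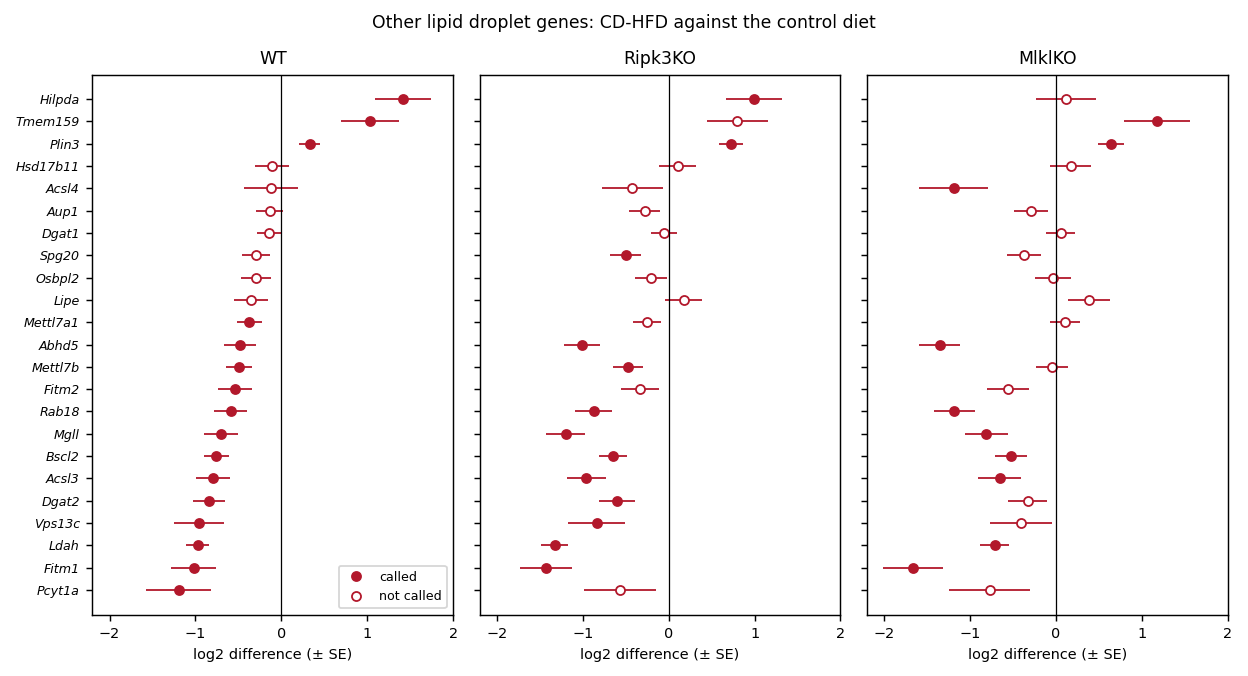
Log2 difference between CD-HFD and control (± SE) for the 23 tested other lipid droplet genes in each genotype; filled points are called. Hilpda, Tmem159 and Plin3 head the WT panel at 1.42, 1.03 and 0.33, and 13 filled WT points lie left of 0.

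By genotype on the control diet, 4 of these 23 genes were higher and 6 lower in MlklKO than in WT. Acsl4 was higher by log2 1.70 and Abhd5 by log2 1.04. In Ripk3KO against WT on control 0 were higher and 1 lower, and that call (Acsl3) was lost with the clock class in the fit, among low-ratio libraries and with the compared groups only, as were those of Hilpda and Dgat1 in MlklKO. Also in MlklKO, the calls of Acsl3, Fitm1, Mettl7a1 and Rab18 were lost among low-ratio libraries. Those of Acsl3, Fitm1, Mettl7a1 and Bscl2 were lost with the compared groups only. Acsl4, Abhd5 and Mettl7b were called in all 10 alternatives. On CD-LFD 1 was higher in Ripk3KO, and 2 were higher and 2 lower in MlklKO, and each of these 5 calls was lost with the clock class in the fit. The shares of all genes called in these comparisons were those given for the members, 4.47% and 27.1% on control and 1.1% and 2.56% on CD-LFD for Ripk3KO and MlklKO. On CD-HFD 0 were called in either knockout, with 5 and 3 at an unadjusted p under 0.05.

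Of 19 regulators and lipid metabolism genes, 5 rose and 8 fell on CD-HFD in WT, 5 and 8 in Ripk3KO, and 6 and 5 in MlklKO, beside 47.7%, 46.3% and 45.2% of all genes called in either direction. Pparg, the fat-cell regulator known to drive Cidec in fatty liver, was not called by either diet in any genotype. Its change on CD-HFD was log2 0.28 (SE 0.22) in WT, 0.44 (SE 0.24) in Ripk3KO and 0.58 (SE 0.27) in MlklKO. On control it was lower in MlklKO than in WT by log2 -0.59 (SE 0.23, adjusted p = 0.0484), called in 6 of 10 alternatives and not with the clock class in the fit, among low-ratio libraries, without a count filter or with the compared groups only. Srebf1, the regulator of fatty acid synthesis, changed on CD-HFD by log2 -2.19 (SE 0.27) in WT and -1.28 (SE 0.30) in Ripk3KO, and by -0.06 (SE 0.32), not called, in MlklKO. On control it was below WT in Ripk3KO (log2 -1.15, not called with the compared groups only) and in MlklKO (log2 -2.49). Ppara, the regulator of fatty acid oxidation, changed in WT by log2 -1.09 on CD-HFD (not called with library size alone) and -0.93 on CD-LFD (not called with library size alone or with the clock class in the fit), and was not called by diet in either knockout. Cd36, a fatty acid carrier, rose on CD-HFD by log2 2.60, 2.20 and 3.12 in WT, Ripk3KO and MlklKO.

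Markers of other cell types moved with diet beside these results. The 8 macrophage markers, some of which lie on lipid-laden cells, summed to a median of 161.5, 282.4 and 1151 CPM in WT on control, CD-LFD and CD-HFD. In Ripk3KO the medians were 119.5, 299.3 and 1546 CPM, and in MlklKO 114.9, 299.3 and 1898 CPM. The 7 stellate cell or fibroblast markers summed to 91.7, 238.3 and 728.5 CPM in WT. The hepatocyte sum had WT medians of 126100, 86530 and 61520 CPM. On CD-HFD in WT 6 of the 8 macrophage markers rose and 2 fell, 6 of 7 stellate cell or fibroblast markers rose, and 8 of 8 hepatocyte markers fell. The part of these shifts in the diet results of the members was not tested. On the control diet the macrophage ranges of WT (133.2 to 194.0 CPM) and MlklKO (79.6 to 198.1 CPM) overlapped, where Cidec, Plin2 and Plin4 were higher in MlklKO. The fat-cell list did not overlap there, at 15.0 to 65.4 CPM in WT and 2.62 to 14.7 CPM in MlklKO, lower in MlklKO and mostly Adrb3. Of its 2 tested genes, Adrb3 was called (log2 -2.26) and Cfd was not (log2 -1.53, adjusted p = 0.0799), and the 1 tested skeletal muscle gene, Mylpf, was also called lower, at a WT median of 1.10 CPM. Their part in the control diet differences was not tested.

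Over the 44 libraries, which share diets, genotypes and depth, the closest pairs of members were Cideb with Plin2 (Pearson r = 0.71 of log2 CPM), Pnpla2 with Plin5 (r = 0.69) and Cidec with Plin4 (r = 0.68). The gene most like Cidec was Naa20 (r = 0.86), followed by Grhl1 and the apolipoprotein gene Apoa4 (both 0.84). For Plin2 it was Apoa5 (0.81), for Plin4 Cntrl (0.83), and for Plin5 the peroxisome gene Pex11a (0.83). Pnpla2 was most like Rhbdd2 (0.87), Cideb most like Cops6 (0.89), Hsd17b13 most like Mpc1 (0.83) and G0s2 most like Mief2 (0.73). The best match of Pnpla3 was Gpam at 0.58, in counts too sparse to read. These r values describe 44 libraries and carry no test.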

How the data were processed

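RNA from whole liver was sequenced as directional libraries, per the labels' protocols. The authors deposited raw counts, 1 whole number per Ensembl gene and library, with no normalisation. The submitters' processing notes name FastQC, STAR, HTSeq, edgeR and limma and the build GRCm39; their settings are not given in the sources used here. Symbols came from the reference gene tables. Exon lengths were taken from GENCODE M21 and gene order and promoter windows from RefSeq on GRCm38.p6, another build, so no coordinates of the count table are given.

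Groups were genotype by diet, from the labels. Genes were kept by filterByExpr (minimum count 10), which left 14862 of 35249 genes with 99.85% of the counts. Counts were scaled by TMM (factors 0.8 to 1.34) and tested with the edgeR (4.0.16, R 4.3.3) quasi-likelihood F test, 1 mean per group over all 44 libraries, for 19 contrasts: diets within genotype, knockouts against WT within diet, and 4 interactions. P values were adjusted by Benjamini-Hochberg over all genes tested in a contrast, with a threshold of 0.05. SE is the log2 difference divided by the square root of F. Floors of 3 counts cover only counting error, because the libraries carry no stated molecular identifiers and PCR copies are counted too. The script was tested on simulated data. No 2 libraries of a group agreed within sampling noise (lowest chi-square per degree of freedom 7.21 over 93 pairs).

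All 10 members were described. Of the other lists, at most the 3 largest called rises and falls on CD-HFD per genotype were named, with Pparg, Srebf1 and Ppara always given; Acsl4 and Abhd5 on the control diet, Hsd17b11 and Cd36 were named after their values were seen. Likeness named the genes of highest Pearson r. The members and lists were chosen with earlier results of these data known. Alternatives were no count filter, RLE size factors, scaling by library size, a robust fit, a replicate block, a clock-phase covariate, the compared groups only, DESeq2 (1.42.0), leaving out WT control replicates 5 and 6, and leaving out each library in turn. Restriction to libraries of low Arntl to Dbp ratio was added after seeing the data. High and low ratio, the 2 classes of the clock-phase covariate, were divided at the largest gap in log2 Arntl minus Dbp that left at least 5 libraries on each side.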

Additional observations from a re-analysis of the deposited data

Results flagged for a closer look

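Of 70 sets of values of a member in a group of 4 or 6 libraries, 3 had 1 library far from the others by Dixon's 95% criterion, where chance gives about 1 in 20. Cidec was 71.6 CPM in Ripk3KO CD-HFD replicate 3, against 48.7 to 52.6 CPM in the other libraries of the group. Pnpla3 was 3.99 CPM (13 counts) in WT control replicate 4, against 0 to 1.36 CPM. Cidea was 0.831 CPM (5 counts) in Ripk3KO CD-HFD replicate 1, against 0 to 0.0873 CPM.

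The effect of diet on Cidec differed between MlklKO and WT by a test of the difference itself, by log2 -2.02 on CD-HFD and log2 -1.80 on CD-LFD (edgeR adjusted p = 0.0389 and 0.0348). These calls were lost in 11 of 21 and 9 of 22 fits without 1 library and with the compared groups only (adjusted p = 0.0593 and 0.0682). The first was also lost with the clock class in the fit (high or low Arntl to Dbp ratio) (0.103) and among low-ratio libraries (0.197), and the second without WT control replicates 5 and 6 (0.0526).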

How the results depend on the processing

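Of the 30 called values of members, 9 kept their call in the 10 alternatives and the 44 fits without 1 library, and 0 of the 30 changed sign: Cidec on both diets in WT and Ripk3KO, Plin4 on CD-LFD and G0s2 on CD-HFD in WT, Hsd17b13 on CD-HFD and Plin5 on CD-LFD in MlklKO, and Plin2 between MlklKO and WT on control. Of 141 uncalled values, 39 were called in at least 1 fit and 52 changed sign in at least 1. The cause of a lost call was not tested. Fitting the compared groups only also ended the calls of Plin4 and Pnpla2 between Ripk3KO and WT on control (adjusted p = 0.263 and 0.255), of Pnpla2 and G0s2 between MlklKO and WT on control (0.0664 and 0.0683), of Plin4 and Pnpla2 on CD-HFD in Ripk3KO (0.0794 and 0.0505), of Hsd17b13 on CD-HFD in WT (0.0609), of G0s2 on CD-LFD in WT (0.0507) and of both Cidec interactions. Members with few counts (Cidea, Pnpla3) limit what can be seen, and calls of Pnpla3, which are in these counts, are not used.

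The counts of called members that moved by over 1.5 times were these. With the clock phase covariate they were 0 (Ripk3KO against WT on control), 3 (MlklKO against WT on control), 0 and 0 (either knockout on CD-LFD). Among libraries of low Arntl to Dbp ratio, chosen after seeing the data, they were 0 and 2 for Ripk3KO and MlklKO against WT on control, 2 for CD-LFD in Ripk3KO, 3 for CD-HFD in MlklKO and 0 for the MlklKO interaction with CD-HFD; no value exists for WT CD-LFD. Without WT control replicates 5 and 6 they were 3 (CD-HFD against CD-LFD in WT), 2 (CD-LFD in Ripk3KO), 2 (CD-HFD in MlklKO), 1 (Ripk3KO against WT on control), 2 (MlklKO against WT on CD-LFD) and 2 (MlklKO interaction with CD-HFD). Fitting the compared groups only gave 4 (CD-HFD against CD-LFD in WT), 2 (CD-HFD in Ripk3KO), 1 and 1 (CD-HFD against CD-LFD in Ripk3KO and MlklKO), 0 and 3 (Ripk3KO and MlklKO against WT on control), 2 and 2 (on CD-LFD), 3 (Ripk3KO on CD-HFD), and 0 and 0 (MlklKO interactions). Library size only gave 3 (CD-HFD against CD-LFD in WT), 6 (CD-LFD in Ripk3KO), 4 (CD-HFD in MlklKO), 1 (CD-HFD against CD-LFD in MlklKO) and 2 (MlklKO against WT on CD-LFD). No count filter gave 2 each for CD-HFD against CD-LFD in WT, CD-LFD in Ripk3KO and the MlklKO interaction with CD-LFD. DESeq2 gave 2 each for CD-HFD against CD-LFD in WT, MlklKO against WT on CD-LFD and the MlklKO interaction with CD-LFD, and RLE gave 2 for the first of these.

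Replicate numbers were not taken to pair the libraries: of 36 pairs of groups, 0 had every same-number correlation over 0.1. That bar cannot exclude partial pairing. In WT these correlations ran from 0.037 to 0.545 between control and CD-LFD and from -0.154 to 0.441 between control and CD-HFD. Between CD-LFD and CD-HFD in WT they ran from -0.144 to 0.417. Pairs with a knockout group reached at most 0.298. With the replicate block, the counts of called members that moved by over 1.5 times were 3 for CD-HFD in MlklKO, 1 for CD-HFD against CD-LFD in MlklKO, and 2 and 3 for the MlklKO interactions with CD-HFD and CD-LFD. The block also called Cideb higher than WT in both knockouts on control (adjusted p = 0.0423 and 0.0234) and, in MlklKO, Plin2 and Cideb lower on CD-HFD (0.00405 and 0.0466), G0s2 lower on CD-HFD than on CD-LFD (0.0359), the Plin2 interactions with CD-HFD and CD-LFD (0.0432 and 0.0163) and the G0s2 interaction with CD-LFD (0.0369), and it ended the calls of Hsd17b13 on CD-HFD in Ripk3KO (0.0589) and CD-LFD in MlklKO (0.0574).

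Without 1 library the called members ranged from 4 to 5 (CD-HFD), 2 to 3 (CD-LFD) and 0 to 2 (CD-HFD against CD-LFD) in WT, from 1 to 4, 1 to 3 and 0 to 0 in Ripk3KO, and from 1 to 2, 1 to 4 and 0 to 1 in MlklKO. Against WT they ranged from 1 to 3 and 4 to 7 on control, 0 to 1 and 1 to 2 on CD-LFD, and 0 to 1 and 0 to 0 on CD-HFD, for Ripk3KO and MlklKO. For the interactions they ranged from 0 to 0 for Ripk3KO, and from 0 to 1 (CD-HFD) and 0 to 3 (CD-LFD) for MlklKO.

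The number of all genes called moved most between knockouts and WT. With the clock phase covariate it went from 665 to 123 (Ripk3KO) and 4029 to 2528 (MlklKO) on control, from 164 to 7 and 381 to 1 on CD-LFD, and from 71 to 25 in the Ripk3KO interaction with CD-HFD. Among low-ratio libraries it was 139 and 1906 on control and 86, against 56, for Ripk3KO on CD-HFD. With the compared groups only it was 62 and 1744 on control, 252 and 2 on CD-HFD, 2281 against 4117 (CD-LFD in WT), 2786 against 1312 (CD-HFD against CD-LFD in Ripk3KO), 20 and 0 (Ripk3KO interactions, from 71 and 4), and 228 and 690 (MlklKO interactions, from 611 and 1256). DESeq2 gave 258 and 618 on CD-LFD, 126 and 2 on CD-HFD, and 207, 32 and 968 in the Ripk3KO interactions and the MlklKO interaction with CD-HFD. Without WT control replicates 5 and 6 it was 6383 (CD-LFD in WT), 353 (Ripk3KO on control), 278 and 678 on CD-LFD, 123 and 2 on CD-HFD, and 149, 15 and 986 in the same interactions. Library size only gave 867 for MlklKO on CD-LFD. The Ripk3KO interaction with CD-LFD had 22 without a filter and 0 with the block or robust fit. Library size only made 6799 of the WT CD-HFD calls rises and 1021 falls, against 3496 and 3586.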
